A study of Mus musculus with 12 samples.

Results

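Olfactory receptor genes were examined in RNA-seq libraries of mouse embryonic stem cells (mESC) and of embryoid bodies (EB), the aggregates in which mESC begin to differentiate. The genes are those rows of the raw count table whose symbol is Olfr followed by a number and whose counts summed to at least 50 over the 12 libraries. This rule kept 40 of 1125 olfactory receptor rows in a table of 24391 gene symbols. The genes were thus chosen by their summed counts, so their levels and the family sums are descriptions without a test, and a gene whose counts lie almost wholly in one group entered through that group.

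The libraries came from 4 mESC lines, all female, derived from crossing a C57BL/6J-129/SvJ background with Mus musculus castaneus and all carrying Rs26+/CreERT, a Cre recombinase that 4-hydroxytamoxifen (OHT) activates. Lines 15.10 and 16.9 had floxed Rif1 on both alleles and gave the F/F group before deletion and the KO groups after OHT. The titles of the F/F libraries hold KO, the words pre deletion and a bracketed code with WT, and they were taken as undeleted from these words and from the lack of OHT. Lines 5.3 and 5.16 were Rif1+/+ and gave the WT group in the same 3 conditions, so WT cells received OHT as well. The conditions were mESC before deletion, mESC after 2 days of OHT, and EB of 2 days made after OHT, with 2 libraries, 1 per line, in each of the 6 groups. All mESC grew with serum, LIF and inhibitors of MEK and GSK3. Replicates 1 and 2 are the WT lines and replicates 3 and 4 the F/F lines, so p-values measure the spread between 2 lines, and other differences between the line pairs cannot be told apart from Rif1 genotype. The first part of a code in the labels, which has the form of a flow cell name but is not called one there, was the same within a condition and differed between conditions, so effects of condition cannot be told apart from those of whatever this code marks.

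Olfactory receptors are G-protein-coupled receptors that couple odorant binding to cyclic AMP signalling in sensory neurons of the nose. They form the largest gene family of the mouse, lie in clusters on most chromosomes, and each mature sensory neuron expresses a single receptor allele. In that neuron the clusters carry heterochromatin with trimethylated H3K9, and the transcription factors Lhx2 and Ebf with the cofactor Ldb1 act at receptor enhancers. Pluripotent cells are not a known site of olfactory signalling, and low receptor transcripts have been seen in many other tissues. Rif1, the gene deleted in this study, encodes a chromatin protein that sets replication timing and acts in double-strand-break repair.

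Of the 40 genes, 32 had a promoter in a RefSeq table on GRCm38.p6 that gives 250 bases before and 50 after the annotated start. The promoters of 6 genes are shown because the results turn on them. Olfr986 had the most counts, Olfr316 was higher in KO than in WT in both mESC and EB, and the other 4 were high in KO EB and at or near 0 elsewhere. In Olfr316, Olfr787 and Olfr450 the 50 bases from the annotated start begin with atg, the letters of a start codon. Their annotated start may thus be that of the coding sequence, and such a window need not hold the transcript's promoter. The word promoter is used here for the window alone. Capitals mark TATAAA, read on either strand, so that TTTATA is the same motif on the other strand.
Olfr986, chr9:40186829-40187128, plus strand: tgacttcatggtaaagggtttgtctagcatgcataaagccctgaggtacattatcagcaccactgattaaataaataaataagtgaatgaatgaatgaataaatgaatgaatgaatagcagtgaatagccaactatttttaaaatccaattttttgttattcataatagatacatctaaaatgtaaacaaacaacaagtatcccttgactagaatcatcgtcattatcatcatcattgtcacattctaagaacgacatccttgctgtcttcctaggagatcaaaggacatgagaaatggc
Olfr316, chr11:58757417-58757716, plus strand: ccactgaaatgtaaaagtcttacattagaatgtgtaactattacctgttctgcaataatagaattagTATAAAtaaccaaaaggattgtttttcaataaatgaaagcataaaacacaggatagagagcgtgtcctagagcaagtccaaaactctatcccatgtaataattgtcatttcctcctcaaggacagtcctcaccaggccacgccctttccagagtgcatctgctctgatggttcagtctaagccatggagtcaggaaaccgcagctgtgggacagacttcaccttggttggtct
Olfr855, chr9:19584261-19584560, plus strand: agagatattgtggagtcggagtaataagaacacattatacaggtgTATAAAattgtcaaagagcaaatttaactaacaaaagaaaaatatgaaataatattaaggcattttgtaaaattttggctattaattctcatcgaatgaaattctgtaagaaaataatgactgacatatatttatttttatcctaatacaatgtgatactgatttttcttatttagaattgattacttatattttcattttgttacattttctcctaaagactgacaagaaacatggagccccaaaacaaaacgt
Olfr787, chr10:129462428-129462727, plus strand: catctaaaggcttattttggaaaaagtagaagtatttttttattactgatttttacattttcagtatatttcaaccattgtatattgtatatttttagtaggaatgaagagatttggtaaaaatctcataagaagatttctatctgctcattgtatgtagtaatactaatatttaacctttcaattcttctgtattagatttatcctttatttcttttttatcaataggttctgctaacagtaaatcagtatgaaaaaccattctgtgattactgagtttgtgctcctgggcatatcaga
Olfr107, chr17:37405227-37405526, plus strand: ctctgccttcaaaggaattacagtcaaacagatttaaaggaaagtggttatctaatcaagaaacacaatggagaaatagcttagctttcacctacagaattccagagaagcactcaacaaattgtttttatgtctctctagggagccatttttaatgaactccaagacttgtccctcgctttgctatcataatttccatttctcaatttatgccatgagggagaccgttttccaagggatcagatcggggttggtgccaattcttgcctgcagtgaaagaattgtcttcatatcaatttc
Olfr450, chr6:42817223-42817522, plus strand: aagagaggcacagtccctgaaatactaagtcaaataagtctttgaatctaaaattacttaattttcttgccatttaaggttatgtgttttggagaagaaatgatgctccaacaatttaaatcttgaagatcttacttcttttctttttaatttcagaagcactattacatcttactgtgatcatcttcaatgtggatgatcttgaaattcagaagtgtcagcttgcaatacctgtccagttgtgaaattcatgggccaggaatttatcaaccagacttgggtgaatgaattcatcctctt

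Searched on both strands, TATAAA stood in 41.0% of the 948 olfactory receptor promoters of that table and in 13.6% of all its 32851 promoters. It stood in 10 of the 32 promoters of the genes described here, and in 4 of 9 among the genes that were higher in KO EB than in WT EB. TAATTA, the core bound by homeodomain factors such as Lhx2, stood in 18.6% of olfactory receptor promoters, 5.29% of all promoters, 3 of the 32 and 0 of the 9. The Ebf motif, the half-sites TCCC and GGGA with any 2 bases between them, stood in 0.527% of olfactory receptor promoters, 0.904% of all, 1 of the 32 and 0 of the 9. Matches may overlap one another and are letters in a window of 300 bases, which says nothing of a factor's binding. Where the annotated start is a coding start, the window may be other sequence than a promoter, and how often this holds was not computed.

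Total counts per library ranged from 28600870 to 64808897, and replicates correlated at 0.993 to 0.995 across genes, which are not independent. Rif1 fell in KO mESC to 719 and 654 CPM (counts scaled to a common library total), against 1511 and 1442 CPM in WT mESC (log2 fold change -1.17 ± 0.08 SE, adjusted p = 4.4e-09 by edgeR's quasi-likelihood test, which gives all fold changes and adjusted p-values below). In KO EB it was at 806 and 861 CPM, against 1354 and 1308 CPM in WT EB, a log2 fold change of -0.74 ± 0.08 (adjusted p = 6.7e-07). Rif1 was already lower in F/F than in WT mESC before deletion, with a log2 fold change of -0.49 ± 0.08 (adjusted p = 7.4e-05). Of 7 mESC markers, all had counts in every group, and their summed level was 1700 to 1825 CPM in KO EB, 1549 to 1626 CPM in WT EB and 4539 to 5855 CPM in mESC libraries. One library differed from the rest in composition: Lars2, which holds a ribosomal RNA-like stretch, took 0.869% of WT mESC replicate 1 and no more than 0.140% of any other library.

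Taken as a family, the 40 genes were at trace level in all 12 libraries and highest in KO EB. Before deletion their summed level was 28.8 and 21.4 CPM in the F/F libraries and 20.8 and 22.8 CPM in the WT libraries. After OHT it was 17.3 and 15.6 CPM in KO mESC, against 11.7 and 10.8 CPM in WT mESC. In EB it was 34.0 and 35.2 CPM in KO, against 13.8 and 13.9 CPM in WT. Both KO EB libraries were above every other library, and both WT mESC libraries were below every other library. Exact 95% Poisson intervals, which cover counting error only, were 32.2 to 36.0 and 33.1 to 37.5 CPM in KO EB and 12.6 to 15.1 and 12.8 to 15.1 CPM in WT EB. The ratio of KO to WT was 2.50 in EB and 1.46 in mESC after OHT, and that of F/F to WT was 1.15 before deletion. In bulk RNA, fewer cells with a transcript and less of it per cell cannot be told apart.

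**Figure D1:**
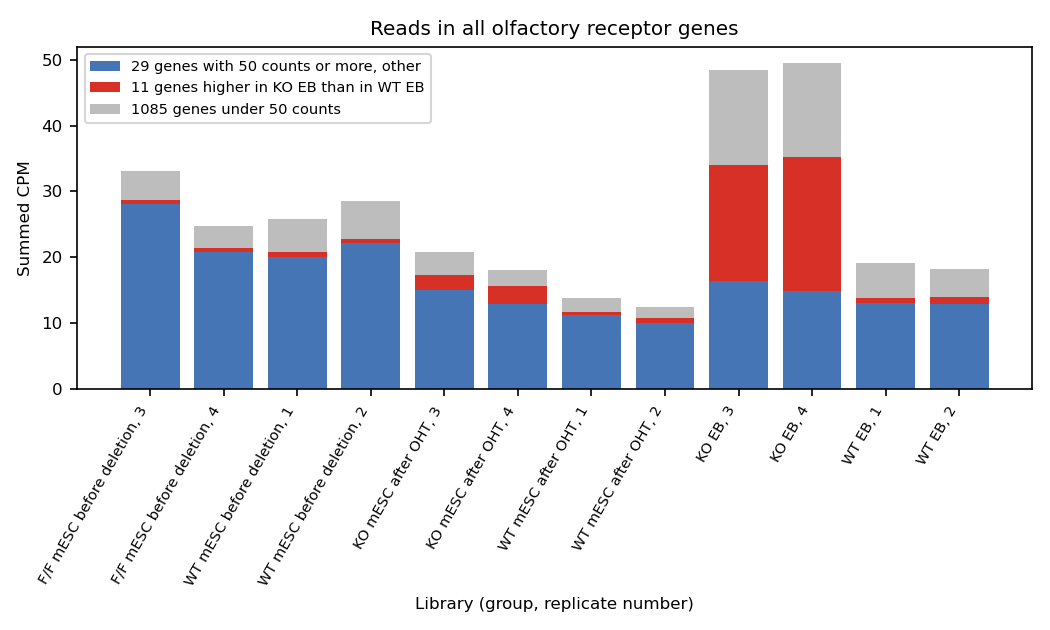
Summed level of olfactory receptor rows in each of the 12 libraries, in CPM, with bars stacked from the 29 genes of at least 50 counts not higher in KO EB than in WT EB, the 11 that were, and the 1085 rows under 50 counts. The 11 genes sum to 17.6 and 20.3 CPM in the KO EB libraries and to at most 2.74 CPM in every other library.

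Most of the excess in KO EB came from 11 genes, which that same contrast picked out, so their sum is a description. They summed to 17.6 and 20.3 CPM in KO EB, against 0.773 and 1.00 CPM in WT EB. The other 29 genes summed to 16.4 and 14.9 CPM in KO EB, against 13.0 and 12.9 CPM in WT EB. These 29 were highest before deletion, at 28.0 and 20.8 CPM in F/F and 20.0 and 22.1 CPM in WT. The 1085 rows under 50 counts, which the rule left out, averaged 14.3 ± 0.163 CPM in KO EB and 4.85 ± 0.708 CPM in WT EB (SD, n = 2 each). Counts were uneven within the family: Olfr986 held 17.3% of the 9258 counts in the 40 genes, and Olfr986, Olfr985 and Olfr1372-ps1 together 37.6%.

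More receptor rows also had a count in KO EB. Of the 1125 rows, 389 had a count in some library and 736 had none. Because depth differs, the number of rows was also computed for the smallest library's depth. At that depth, 172 and 163 rows had a count in KO EB, against 120 and 108 in WT EB. The unadjusted numbers were 189 and 163 rows in KO EB and 130 and 129 rows in WT EB. Before deletion the number at equal depth was 96.1 and 81.0 in F/F and 98.9 and 112 in WT, and after OHT it was 85.8 and 71.9 in KO mESC and 70.9 and 55.2 in WT mESC. Unadjusted, these were 113 and 97 in F/F, 112 and 121 in WT before deletion, 87 and 77 in KO mESC and 100 and 68 in WT mESC. Both KO EB libraries thus had more rows with a count than any other library. At equal depth, the numbers were lower in F/F than in WT before deletion and higher in KO than in WT after OHT, without overlap. The unadjusted numbers overlapped in both pairs. Rows with a count over all genes were not computed, so the receptor numbers have no background beside them.

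**Figure D2:**
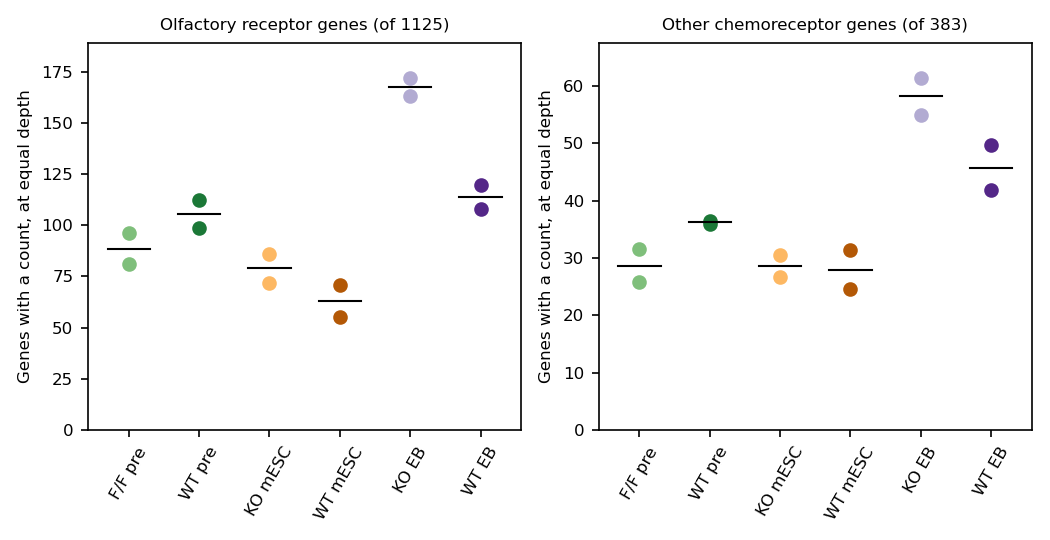
Number of genes with at least 1 count, computed for the depth of the smallest library, for the 1125 olfactory receptor rows (left) and the 383 rows of other chemoreceptor families (right), with a point per library and a bar at each group mean. KO EB averaged 168 olfactory receptor rows and 58.2 other chemoreceptor rows, against 114 and 45.7 in WT EB.

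The 2 genes with the most counts, Olfr986 and Olfr985, lie on chromosome 9 on either side of Tmem225 and were detected in every library. Olfr986 was at 4.85 and 3.76 CPM in F/F and 2.80 and 4.37 CPM in WT before deletion, at 3.15 and 3.04 CPM in KO mESC and 3.41 and 2.58 CPM in WT mESC after OHT, and at 3.71 and 3.32 CPM in KO EB and 2.97 and 2.79 CPM in WT EB. Libraries of the genotypes overlapped before deletion and after OHT and lay apart in EB, and none of the 7 group comparisons passed the threshold of an adjusted p under 0.05. Its log2 fold change was 0.23 ± 0.23 in KO EB against WT EB (adjusted p = 0.45) and -0.02 ± 0.22 in KO mESC against WT mESC (adjusted p = 0.95).

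Olfr985 was at 2.08 and 3.10 CPM in F/F and 1.37 and 1.68 CPM in WT before deletion, and was higher in F/F by a log2 fold change of 0.80 ± 0.24 (adjusted p = 0.014). That call was lost without WT replicate 1 (adjusted p = 0.11) and without F/F replicate 4 (adjusted p = 0.22). After OHT it was at 3.36 and 3.14 CPM in KO mESC and 2.47 and 2.50 CPM in WT mESC (adjusted p = 0.25), and in EB at 2.29 and 2.45 CPM in KO libraries and 1.84 and 1.41 CPM in WT libraries (adjusted p = 0.12). The KO libraries lay above the WT libraries in both of these conditions without passing the test.

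The third gene by counts, the pseudogene Olfr1372-ps1, changed with condition. It was at 1.68 and 0.881 CPM in F/F and 1.32 and 1.88 CPM in WT before deletion. After OHT it was at 0.305 and 0.365 CPM in KO mESC and 0.216 and 0.363 CPM in WT mESC. Its EB levels were 3.76 and 3.32 CPM in KO libraries and 3.45 and 4.06 CPM in WT libraries. It was higher in EB than in mESC after OHT by 3.37 ± 0.35 on the log2 scale in KO (adjusted p = 2.9e-07) and 3.70 ± 0.32 in WT (adjusted p = 1.8e-08). Between genotypes the fold change was -0.15 ± 0.25 in EB (adjusted p = 0.67).

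**Figure D3:**
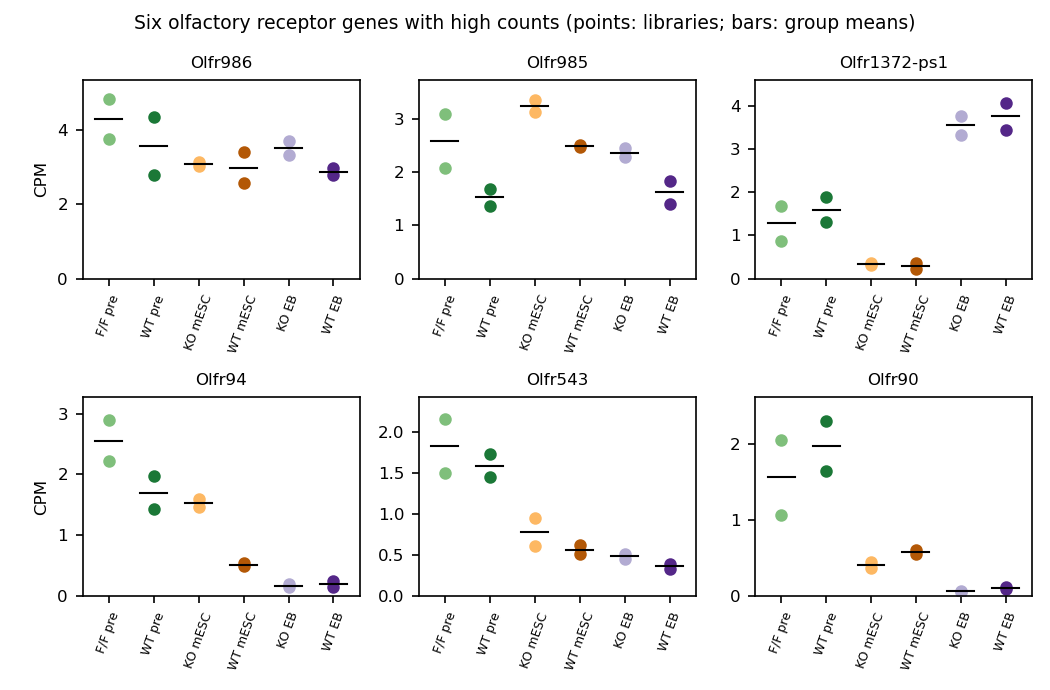
Level in CPM of 6 of the 7 olfactory receptor genes with the most counts, with a point per library and a bar at each group mean; Olfr316, the remaining one, is plotted with the genes higher in KO EB. Olfr986 stays between 2.58 and 4.85 CPM, Olfr1372-ps1 is lowest after OHT and highest in EB, and Olfr94, Olfr543 and Olfr90 are highest before deletion.

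Per kilobase of annotated exon, the level of Olfr855 in KO EB, 2.26 CPM per kb, was the highest group mean of the family. Olfr985 led in F/F mESC (1.38 CPM per kb), KO mESC (1.73), WT mESC (1.32) and WT EB (0.865), and the pseudogene Olfr856-ps1 in WT mESC before deletion (1.34). The genes whose log2 CPM followed that of Olfr986 most closely over the 12 libraries were Mirlet7a-1 (Pearson r = 0.93), Gm16982 (0.86), Rbm26 (0.84), Ddias (0.82) and Plekhs1 (0.82). These are the highest correlations among all genes tested over the same libraries, given as a description.

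In KO EB against WT EB, 11 of the 37 genes tested were higher and 0 were lower, while over all 17115 genes tested 20.7% were higher and 19.7% were lower. The 3 genes that did not pass the filter on low counts were Olfr983, Olfr1350 and Olfr658. The median log2 fold change was 0.88 over the 37 genes and -0.02 over all genes tested; with genes at 0 placed at their bounds, it was 0.93 over 36. Of the 40 genes, 14 had fewer than 50 counts outside KO EB and so needed counts from that group to enter. These were 9 of the 11 higher genes and Olfr419, Olfr99, Olfr1350, Olfr57 and Olfr658, which were not called higher or not tested. Olfr99, for example, had 15 and 6 counts in KO EB against 15 and 20 in WT EB. For the 9, the difference draws on counts that the rule used, so it is a description. The count of 11 and both medians over the receptor genes include genes that entered through KO EB, so in part they are descriptions too. Olfr316 and Olfr510 reached 50 counts without the KO EB libraries.

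Olfr316 was at 2.56 and 2.10 CPM in KO EB, against 0.178 and 0.167 CPM in WT EB, giving a log2 fold change of 3.68 ± 0.36 (adjusted p = 3.2e-07). Both KO libraries lay far above both WT libraries. Olfr510 was at 0.436 and 0.664 CPM in KO EB, against 0.119 CPM in each WT EB library, a log2 fold change of 2.09 ± 0.59 (adjusted p = 0.0088).

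The remaining 9 genes had few or no counts outside KO EB, through which they entered, so their fold changes and p-values are descriptions. Olfr855, the highest, had 129 and 134 counts in KO EB, 2 and 4 counts in WT EB, and 1 count in the 8 mESC libraries together. Its level was 3.52 and 4.69 CPM in KO EB, against 0.0594 and 0.0956 CPM in WT EB, a log2 fold change of 5.57 ± 0.46 (adjusted p = 2.6e-07). Olfr307 had 70 and 67 counts in KO EB, against 9 and 23 counts in WT EB, and 1 count in the mESC libraries, and its log2 fold change was 2.27 ± 0.40 (adjusted p = 0.00043). These 2 genes thus had reads in EB of both genotypes, with more of them in KO.

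Olfr376 had 85 and 73 counts in KO EB against 1 in each WT EB library, a ratio of 91.4 with a 95% counting interval of 24.9 to 761. Olfr787 had 64 and 71 counts in KO EB against 0 and 1 in WT EB, and none in any mESC library, a ratio of 156 with an interval of 27.6 to 6214. Olfr815 had 55 counts in each KO EB library against 4 and 1 in WT EB, a log2 fold change of 4.55 ± 0.58 (adjusted p = 2.2e-05). The groups of each gene did not overlap. Olfr815 shares 44.5% of its 50-base words with Olfr814, so its reads may belong partly to that gene.

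The last 4 genes had no count in WT EB, so their folds are lower bounds against a floor of 3 counts per library. Olfr876 had 36 and 32 counts in KO EB and was at least 13.1-fold higher, with 5 counts in the mESC libraries together. Olfr107 had 31 and 29 counts and was at least 11.6-fold higher, and Olfr450 had 38 and 22 counts and was at least 11.2-fold higher. Both had no count in any library outside KO EB. Olfr912, with 28 and 19 counts in KO EB and 3 in the mESC libraries, was at least 8.88-fold higher. Their adjusted p-values lay between 1.7e-05 and 0.00013, but draw on the KO EB counts through which the rule kept these genes.

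**Figure D4:**
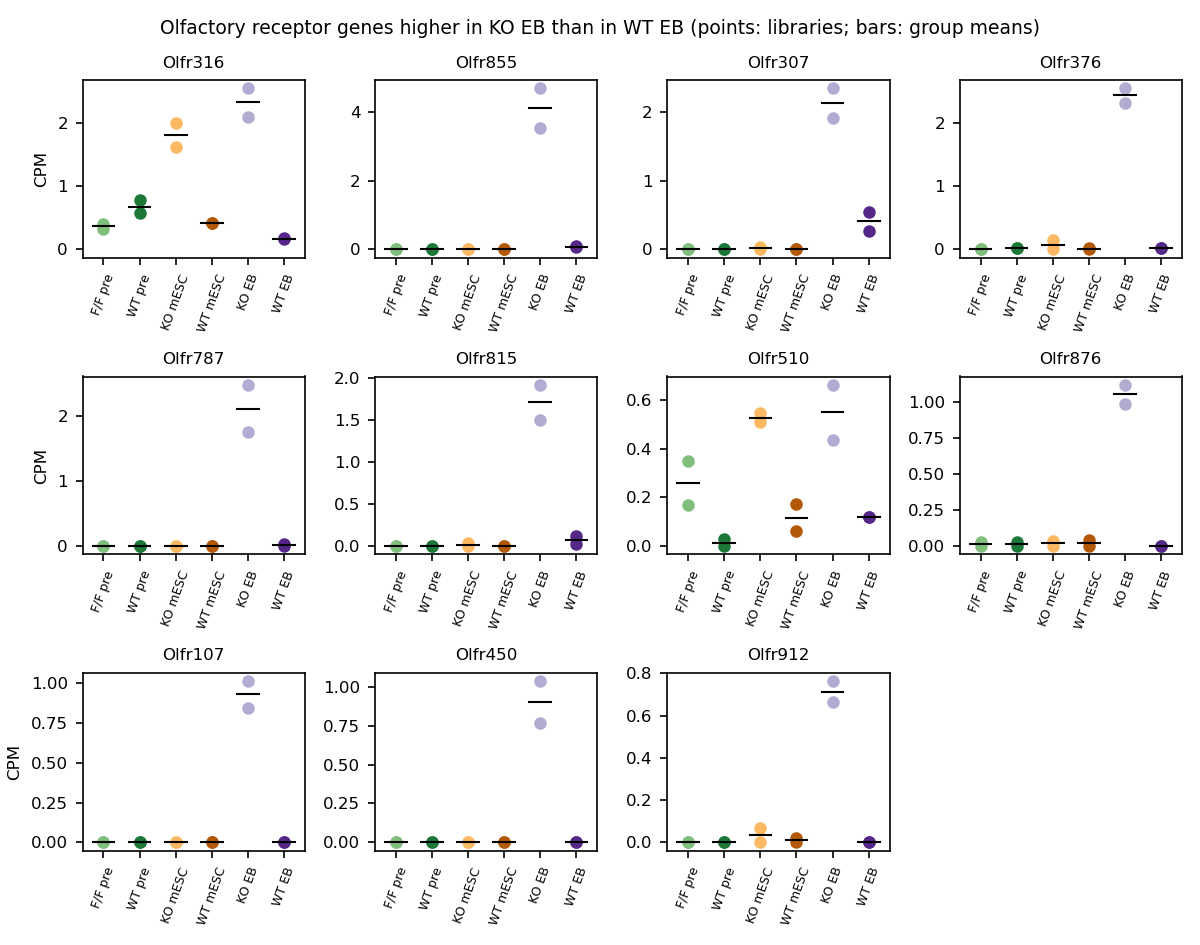
Level in CPM of the 11 genes higher in KO EB than in WT EB, with a point per library and a bar at each group mean, each panel on its own scale. Olfr316 and Olfr510 are also raised in KO mESC, whereas Olfr855, Olfr787, Olfr107 and Olfr450 are at 0 CPM in both mESC groups after OHT.

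The rows just below the threshold of 50 included more of the same kind. Olfr912, with 50 counts, Olfr57 and Olfr658, with 51 each, lay just inside it, and Olfr785 with 48, Olfr329-ps with 47 and Olfr70 with 46 just outside. Olfr57 had its counts mainly in WT mESC before deletion (19 and 10), and Olfr658 had 0 to 11 per library. All 48 counts of Olfr785 (30 and 18) and all 47 of Olfr329-ps (22 and 25) were in the KO EB libraries, while Olfr70 had 1 count there. Of rows under the threshold, 8 passed the filter of the test (Olfr118, Olfr1450, Olfr329-ps, Olfr330, Olfr785, Olfr881, Olfr901 and Olfr913). All 8 were higher in KO EB than in WT EB, with adjusted p of 0.00015 to 0.0061; most of their counts are in KO EB, so they passed the filter through that group.

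Against KO mESC, KO EB had 14 of the 37 genes higher and 4 lower, beside 31.4% higher and 27.6% lower over all genes tested. The 14 included 9 of the 11 genes above, all but Olfr316 and Olfr510, together with Olfr1372-ps1, Olfr420, Olfr419, Olfr466 and Olfr99. Both comparisons use the same KO EB libraries, so the overlap is a description. Those 9 genes, Olfr419 and Olfr99 had fewer than 50 counts outside KO EB and entered through that group. Their being higher there is therefore a description too, and so in part is the count of 14. Olfr855 was at least 42.5-fold higher in KO EB than in KO mESC, where it had no count, and Olfr787 at least 21.9-fold. Olfr420 had 57 and 40 counts in KO EB against 1 and 0 in KO mESC, a ratio of 92.7 with an interval of 16.2 to 3697.

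The 4 genes lower in KO EB than in KO mESC were Olfr94, Olfr90, Olfr153 and Olfr287. Olfr94 was at 0.191 and 0.140 CPM in KO EB, against 1.59 and 1.46 CPM in KO mESC (log2 fold change -3.18 ± 0.39, adjusted p = 2.1e-06). Olfr287 was at 0.0545 and 0.0699 CPM in KO EB, against 0.813 and 0.609 CPM in KO mESC (log2 fold change -3.48 ± 0.67, adjusted p = 0.00024).

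In WT EB against WT mESC, 8 of 37 genes were higher and 5 lower, beside 32.5% higher and 29.8% lower over all genes. Olfr1372-ps1, Olfr307, Olfr419, Olfr420, Olfr815, Olfr855 and Olfr99 were higher in EB in both genotypes, and Olfr153, Olfr90 and Olfr94 lower in both. The share of all genes called in both genotypes was not computed. In WT, the calls of Olfr855 and Olfr815 rest on 6 and 5 counts in EB against 0 in mESC. They were at least 1.50-fold and 1.38-fold higher there. Olfr63 was higher in WT EB than in WT mESC (2.47 ± 0.64, adjusted p = 0.0027) and was not called in KO (0.48 ± 0.64, adjusted p = 0.54); the difference between these effects was not called either (adjusted p = 0.12). Olfr307 was at least 7.88-fold higher in WT EB than in WT mESC, where it had no count. Olfr420 had 35 and 29 counts in WT EB against 3 and 0 in WT mESC, a ratio of 33.1 with an interval of 10.8 to 165. Olfr316 was lower in WT EB, at 0.178 and 0.167 CPM against 0.417 and 0.420 CPM in WT mESC, by a log2 fold change of -1.28 ± 0.43 (adjusted p = 0.015). That call was lost without WT EB replicate 2 (adjusted p = 0.080), and that of Olfr94 without WT EB replicate 1 (adjusted p = 0.055).

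Of 37 genes tested in KO mESC against WT mESC after OHT, 5 were higher and 1 lower, beside 19.8% higher and 18.6% lower over all genes. Olfr316 was at 1.63 and 2.01 CPM in KO mESC, against 0.417 and 0.420 CPM in WT mESC, giving a log2 fold change of 2.06 ± 0.29 (adjusted p = 3.3e-05). Olfr94 was at 1.59 and 1.46 CPM in KO mESC, against 0.494 and 0.535 CPM in WT mESC, giving a log2 fold change of 1.51 ± 0.29 (adjusted p = 0.00059). Olfr287 was at 0.813 and 0.609 CPM in KO mESC, against 0.0463 and 0.153 CPM in WT mESC, a fold change on the log2 scale of 2.80 ± 0.53 (adjusted p = 0.00054). In each of the 3 genes both KO libraries lay above both WT libraries.

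The other 3 calls rested on low counts. Olfr510 had 15 and 18 counts in KO mESC against 4 and 9 in WT mESC (2.15 ± 0.54, adjusted p = 0.0048), and Olfr503 had 12 and 13 counts against 5 and 10 (1.55 ± 0.56, adjusted p = 0.036). Olfr29-ps1 had no count in KO mESC and 6 and 3 counts in WT mESC (adjusted p = 0.0497). Without WT mESC replicate 1, 3 genes were higher and 0 lower, and the calls of Olfr510 (adjusted p = 0.065), Olfr503 (0.25) and Olfr29-ps1 (0.17) were lost. Olfr503 was not called by DESeq2 either (adjusted p = 0.18).

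The same pairs of lines differed before deletion as well. In F/F against WT mESC, 4 of 37 genes were higher and 1 lower, beside 19.9% higher and 17.5% lower over all genes. Olfr287 was at 1.96 and 1.21 CPM in F/F, against 0.242 and 0.231 CPM in WT, a log2 fold change of 2.74 ± 0.44 (adjusted p = 0.00011). Olfr153 was at 1.93 and 1.52 CPM in F/F, against 0.538 and 0.492 CPM in WT, a log2 fold change of 1.76 ± 0.34 (adjusted p = 0.00053). Olfr510 had 14 and 7 counts in F/F against 1 and 0 in WT, a ratio of 18.4 with an interval of 2.96 to 762, and the call was lost without WT replicate 2 (adjusted p = 0.051). Olfr29-ps1 had no count in F/F and 26 and 16 counts in WT, at least 7.91-fold lower. It had 56 counts in all and entered through these WT libraries, so the 1 lower call is a description. Olfr287, Olfr510 and Olfr29-ps1 thus differed the same way before and after OHT, and no call on the change of the difference was made for them. Olfr94, called higher in KO mESC after OHT, was at 2.89 and 2.21 CPM in F/F and 1.42 and 1.97 CPM in WT before deletion. Its libraries did not overlap there, but neither that difference nor its change with OHT was called.

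Olfr316 was the gene whose genotype difference changed with OHT. Before deletion it was at 0.326 and 0.405 CPM in F/F and 0.780 and 0.578 CPM in WT, a difference that did not pass the test (-0.86 ± 0.36, adjusted p = 0.066). The genotype effect after OHT exceeded that before by 2.92 ± 0.46 on the log2 scale (adjusted p = 0.00098), the only call among 37 genes, beside 4.07% higher and 3.79% lower over all genes. Within the F/F lines, Olfr316 was higher after OHT by 2.31 ± 0.32 on the log2 scale (adjusted p = 2.5e-05), and it did not differ by the test between KO EB and KO mESC (0.34 ± 0.25, adjusted p = 0.27). Olfr316 shared 15.0% of its 50-base words with Olfr318, Olfr319 and Olfr320.

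Between EB and mESC, the genotype effect differed for 4 genes, 3 higher and 1 lower in EB, beside 14.8% higher and 13.7% lower over all genes. Olfr316 had a larger genotype effect in EB by 1.62 ± 0.50 (adjusted p = 0.021) and Olfr94 a smaller one by -1.80 ± 0.63 (adjusted p = 0.040). Olfr466, with 6 and 7 counts in KO EB against 1 and 4 in WT EB, and 0 and 1 in KO mESC against 5 and 8 in WT mESC, and Olfr876 were called higher, Olfr876 on 68 KO EB counts through which the rule kept it. Leaving out any single library of the 8 left 1 or 2 of the 4 calls, and DESeq2 made 0. Olfr855, Olfr787, Olfr107 and Olfr450 had no count in either mESC group after OHT, so this test says little of them.

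After OHT, 12 of the 37 genes were lower than before it in each genotype. In KO mESC against F/F mESC, 2 of 37 genes were higher and 12 lower, beside 22.1% higher and 21.5% lower over all genes, with a median log2 fold change of -0.68. In WT mESC after OHT against before, 2 were higher and 12 lower, beside 24.9% higher and 24.2% lower over all genes, with a median of -0.93. Of the 2 higher in WT, Olfr985 and Olfr510, the call of Olfr510 was lost with cell line as a block (adjusted p = 0.065). 10 genes were lower in both: Olfr1372-ps1, Olfr466, Olfr49, Olfr543, Olfr544, Olfr545, Olfr856-ps1, Olfr90, Olfr91 and Olfr94. The share of all genes lower in both was not computed, so this number has no background beside it. The first part of the label code differs between the conditions in these comparisons too. The 14 calls in KO against F/F became 7 without KO mESC replicate 4 or without F/F replicate 3, and 9 with DESeq2.

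Olfr90, on chromosome 17, was at 0.441 and 0.365 CPM in KO mESC, against 2.06 and 1.07 CPM in F/F mESC, a fold change on the log2 scale of -1.94 ± 0.38 (adjusted p = 0.00057). In WT mESC after OHT it was at 0.555 and 0.611 CPM, against 2.31 and 1.65 CPM before, a log2 fold change of -1.68 ± 0.31 (adjusted p = 0.00035). Olfr544, on chromosome 7, had 2 and 3 counts in KO mESC against 37 and 29 in F/F, and 15 and 5 counts in WT mESC against 28 and 23 before. Olfr543, its neighbour in the cluster between Rrm1 and Trim21, was lower in both genotypes, with log2 fold changes of -1.23 ± 0.30 in KO (adjusted p = 0.0032) and -1.39 ± 0.29 in WT (adjusted p = 0.00090). In every one of these contrasts, both libraries after OHT lay below both before it. Olfr91 had 5 and 16 counts in KO mESC against 61 and 40 in F/F, and 13 and 12 counts in WT mESC against 61 and 37 before. Olfr49 had 6 in each KO mESC library against 28 and 19 in F/F, and 14 and 6 counts in WT mESC against 28 and 18 before.

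**Figure D5:**
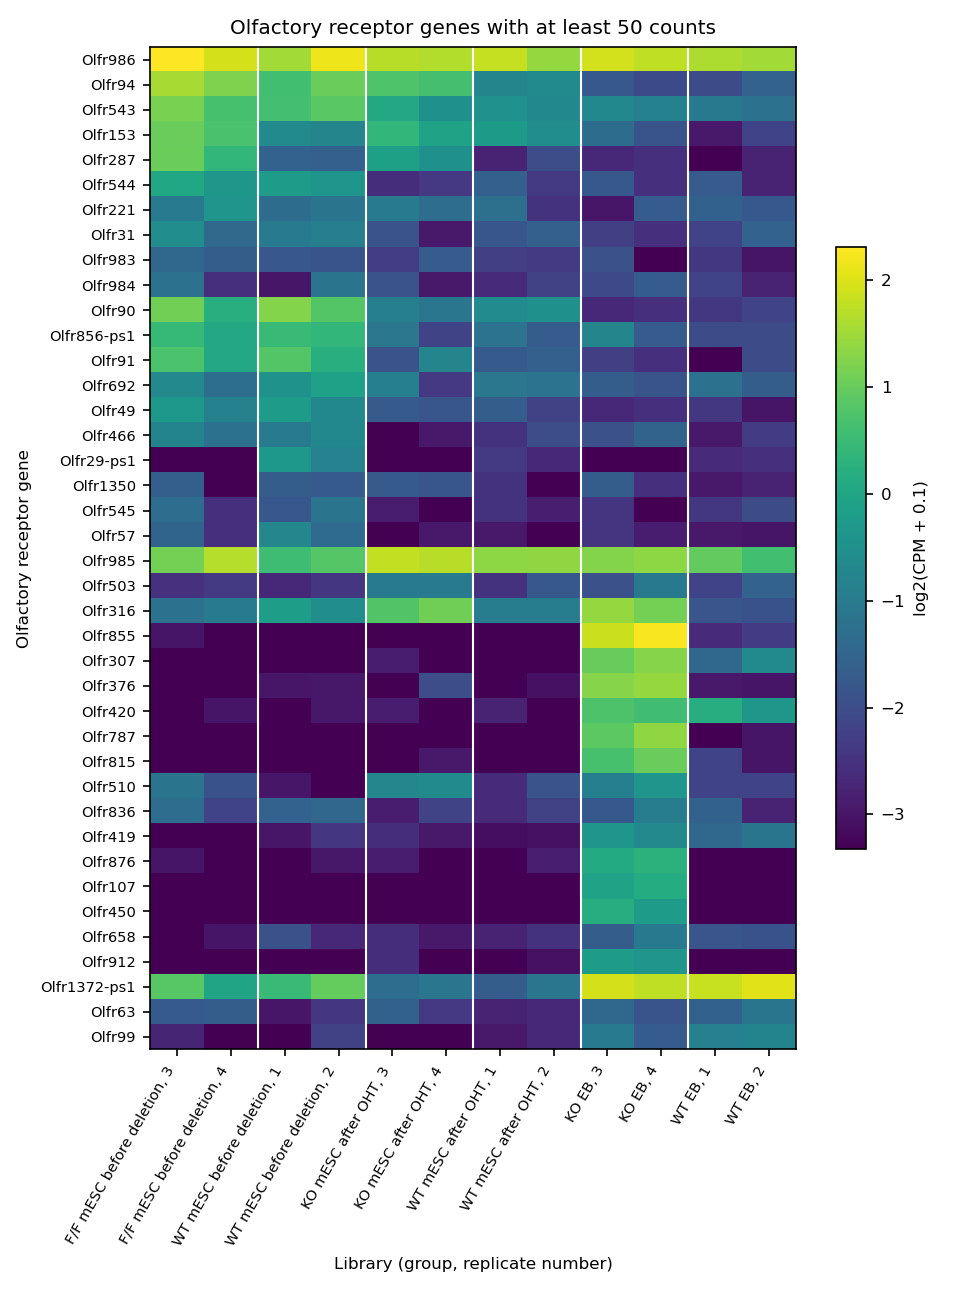
Level of each of the 40 olfactory receptor genes (rows, ordered by the group in which their mean is highest) in each of the 12 libraries (columns), as log2(CPM + 0.1). 20 genes have their highest mean before deletion, 2 in KO mESC after OHT, 15 in KO EB and 3 in WT EB.

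By the group of its highest mean level, each gene fell into 1 of 5 classes. 10 genes were highest in F/F mESC and 10 in WT mESC before deletion, 2 (Olfr985 and Olfr503) in KO mESC, 15 in KO EB and 3 (Olfr1372-ps1, Olfr63 and Olfr99) in WT EB. No gene was highest in WT mESC after OHT. The 5 genes that passed the filter and were called in no comparison were Olfr986, Olfr692, Olfr221, Olfr836 and Olfr984, of which Olfr692 had 3 to 29 counts per library, Olfr221 1 to 28, Olfr836 1 to 12 and Olfr984 1 to 13. The 3 untested genes had at most 11 counts in a library. Many of these orders rest on a few counts, as for Olfr545, which had at most 12 counts in a library.

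The genes lie on 12 chromosomes, by symbol match to a GENCODE M21 annotation on GRCm38, a later build than the mm9 that the submitters' processing notes name. Chromosomes 7 and 9 held 9 each and chromosome 17 held 6. The 11 genes higher in KO EB were spread over 6 chromosomes, with 3 on chromosome 9, 2 each on 7, 10 and 11, and 1 each on 6 and 17. Of the 40 genes, 21 had over 5% of their 50-base stretches of exon in common with other genes, which leaves the origin of such reads uncertain, and Olfr287 (33.7%) and Olfr31 overlapped exons of another gene. Olfr855, Olfr450, Olfr985, Olfr94 and Olfr543 shared none.

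For each receptor, the nearest gene on either side that is no olfactory receptor was read out of the same test. Such a gene is called beside the receptor here, although other receptors can lie between them. Olfr912, for example, lies between Olfr876 and Vwa5a. Distances were not computed. The 11 genes higher in KO EB had 18 distinct nearest neighbours that are no olfactory receptor, of which 9 were tested, and 5 of these were higher and 0 lower in KO EB, beside 20.7% higher and 19.7% lower over all genes tested. Vwa5a, beside Olfr876 and Olfr912, was at 52.0 ± 6.32 CPM in KO EB and 24.5 ± 0.639 CPM in WT EB, a log2 fold change of 1.02 (adjusted p = 6.1e-07), and was also higher in KO mESC (1.12, adjusted p = 6.5e-07). Spata22, a meiotic gene beside Olfr376, was at 2.27 ± 0.145 CPM in KO EB and 0.658 ± 0.0486 CPM in WT EB (1.72, adjusted p = 0.00054). Zfp317, beside Olfr855, was higher by 0.33 (adjusted p = 0.0033). Neurod4, beside Olfr787 and Olfr815, was at 0.134 ± 0.0415 CPM in KO EB and 0.0804 ± 0.0124 CPM in WT EB (adjusted p = 0.56).

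On chromosome 17, Ubd, which encodes a ubiquitin-like modifier, is such a neighbour of Olfr94, Olfr90 and Olfr91. Gabbr1, a GABA receptor subunit gene, is one of Olfr90 and Olfr91. Ubd was at 12.4 ± 0.0595 CPM in KO mESC and 4.78 ± 0.369 CPM in WT mESC, giving a log2 fold change of 1.32 (adjusted p = 1.7e-07), and in KO EB at 2.19 ± 0.0290 CPM against 1.48 ± 0.0725 CPM in WT EB (SD, n = 2 each). Gabbr1 was higher in KO mESC by 0.72 (adjusted p = 1.5e-06) and lower in KO EB, with a log2 fold change of -0.52 (adjusted p = 9.4e-05). Of the receptors beside them, Olfr94 was higher in KO mESC than in WT mESC, while Olfr90 (-0.59 ± 0.41, adjusted p = 0.27) and Olfr91 (0.58 ± 0.61, adjusted p = 0.48) were not called. Ubd was also higher in F/F than in WT before deletion, by 1.58 (adjusted p = 9.4e-09). Beside Olfr986, Zfp202 was at 19.7 ± 1.13 CPM in KO EB and 19.8 ± 2.56 CPM in WT EB (adjusted p = 0.75).

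Few of the genes that receptors work with in sensory neurons were called. Of 23 genes of olfactory transduction and receptor trafficking, 19 were tested, and 3 were higher and 2 lower in KO EB than in WT EB, with a median log2 fold change of 0.19, beside 20.7% higher and 19.7% lower over all genes tested. Pde1c, a calcium-dependent phosphodiesterase, was at 13.1 ± 0.815 CPM in KO EB and 5.72 ± 0.188 CPM in WT EB (1.13 ± 0.15, adjusted p = 1.2e-05). Gnas, the stimulatory G protein gene used widely outside the nose, was higher by 0.29 ± 0.07 (adjusted p = 0.0024), and Reep1, a receptor accessory protein, by 0.35 ± 0.13 (adjusted p = 0.046). Omp, the marker of mature sensory neurons, was lower, at 0.793 ± 0.312 CPM in KO EB and 1.90 ± 0.292 CPM in WT EB (-1.35 ± 0.34, adjusted p = 0.0046), as was Carns1, a carnosine synthase (-0.83 ± 0.27, adjusted p = 0.022).

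The summed level of the 9 olfactory sensory neuron markers overlapped between the EB genotypes, and 8 of the 9 had a count in each. It was 33.7 to 35.5 CPM in KO EB and 35.2 to 38.4 CPM in WT EB, most of it from Adcy3, an adenylyl cyclase gene at 28.3 and 28.6 CPM in the same groups. The markers went in both directions. Omp, above, and Gap43, a marker of growing axons, lay lower in KO EB without overlap. Gap43 had 35 and 24 counts in KO EB against 76 and 104 in WT EB. Gng13, Ncam2 and Stoml3 lay higher in KO EB without overlap, but none of them was called. Their means were 1.12, 0.290 and 0.257 CPM in KO EB, against 0.834, 0.122 and 0.0923 CPM in WT EB. Ncam2 had 11 and 8 counts in KO EB against 5 and 4 in WT EB, and Stoml3 6 and 10 against 3 and 4. The share of all genes without overlap was not computed. Rtp1, which carries receptors to the cell surface, had no count in any EB library, and Cnga2, the channel subunit of the sensory cilium, had 3 and 7 counts in KO EB against 1 and 0 in WT EB.

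Of 23 genes for receptor choice and silencing, 22 were tested, and 1 was higher and 6 lower in KO EB than in WT EB, with a median of -0.18, beside the same 20.7% higher and 19.7% lower over all genes. Ehmt2, an H3K9 methyltransferase also called G9a, was at 156 ± 2.21 CPM in KO EB and 241 ± 9.09 CPM in WT EB (-0.69 ± 0.08, adjusted p = 3.5e-06). Trim28, which encodes the corepressor KAP1, was lower by a log2 fold change of -0.30 ± 0.07 (adjusted p = 0.0026) and Suv39h2, another H3K9 methyltransferase, by -0.34 ± 0.08 (adjusted p = 0.0034). Ehmt1, Cbx5 and Ebf3 were the other 3 that were lower. Atf5, a stress-response transcription factor that receptor proteins switch on in sensory neurons, was higher, at 8.19 ± 1.25 CPM in KO EB and 4.27 ± 0.748 CPM in WT EB (0.87 ± 0.16, adjusted p = 0.00028). Atf5 was already higher in F/F before deletion, at 12.8 ± 0.469 CPM against 5.09 ± 0.487 CPM in WT (1.35 ± 0.15, adjusted p = 2.2e-06).

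Markers of several other states differed between the EB genotypes alongside the receptors, and their part in the receptor values was not tested. The 7 mESC markers summed to 1700 to 1825 CPM in KO EB and 1549 to 1626 CPM in WT EB, but did not move together. Means were higher in KO EB than in WT EB for Nanog (163 against 72.0 CPM) and Zfp42 (127 against 50.4 CPM). The same held for Esrrb (178 against 149 CPM) and Tfcp2l1 (137 against 103 CPM). Means were lower in KO EB for Pou5f1 (717 against 724 CPM), Sox2 (203 against 207 CPM) and Dppa5a (238 against 281 CPM). The 4 early epiblast markers summed to 977 to 984 CPM in KO EB and 1532 to 1535 CPM in WT EB, with a count for all 4 in both. The 5 neuron markers summed to 49.6 to 50.4 CPM in KO EB and 33.5 to 37.4 CPM in WT EB, all 5 with a count in both. The 6 feeder fibroblast markers summed to 16.0 to 17.8 CPM in KO EB, where all 6 had a count, and 13.8 to 14.3 CPM in WT EB, where 5 did. The 5 spermatid and testis markers, for a tissue in which receptor transcripts are known, summed to 0.409 to 0.629 CPM in KO EB and 0.238 to 0.669 CPM in WT EB, which overlap, with 4 and 5 of them detected in these groups.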

How the data were processed

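RNA was measured in 12 libraries of 6 groups, 2 each. The authors deposited raw whole-number counts per gene symbol, without normalization, for 24391 symbols. The submitters' processing notes name mm9, BWA, HTSeq and DESeq2 without versions or roles, and no strand setting. CPM were computed here from library totals (28600870 to 64808897 counts).

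Tests used edgeR 4.0.16 (R 4.3.3) on the counts: quasi-likelihood F test, 1 model of the 6 groups, TMM, filterByExpr, Benjamini-Hochberg adjustment over 17115 genes, called at 0.05. SE come from that fit. Simulated data with known changes were used to check it. Alternatives were DESeq2 1.42.0, its size factors, no filter, only the groups compared, left-out libraries, a line block and thresholds of 25 and 100 counts. Replicate numbers are cell lines, so they pair conditions within a genotype; same-line deviations correlated at -0.066 to 0.0912.

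Members and lists were chosen with earlier results of these data known. Named genes were the 12 with most counts, up to 5 per contrast and direction with the smallest p, those beside the threshold, up to 4 per list, and neighbours; others in a count were named after their values were seen. The floor is 3 counts per library.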

Additional observations from a re-analysis of the deposited data

Results flagged for a closer look

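The genotype effect differed between conditions for 4 genes, by a test of the difference itself in edgeR. For Olfr316 the log2 effect after OHT minus that before was 2.92 (adjusted p = 0.00098), and its effect in EB minus that in mESC was 1.62 (adjusted p = 0.021). KO libraries were above WT libraries in both conditions after OHT, and F/F libraries below WT libraries before deletion.

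In EB minus mESC, the difference was 4.13 for Olfr466 (adjusted p = 0.029), 8.47 for Olfr876 (adjusted p = 0.029) and -1.80 for Olfr94 (adjusted p = 0.040). Olfr876 had 68 of its 73 counts in KO EB, through which the rule kept it, so its value is a description. It had no count in WT EB, so its fitted size depends on the prior count and bounds nothing. Olfr466 rests on 0 to 8 counts per library.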

How the results depend on the processing

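Of the counts of genes called, that in KO EB against WT EB ranged from 10 to 11 over left-out libraries, was 19 with a threshold of 25 counts and 7 with 100. That in KO mESC against F/F was 14, became 9 by DESeq2 and ranged from 7 to 16. That in KO EB against KO mESC was 18, became 11 at 100 counts and ranged from 18 to 20. The EB minus mESC count was 4, became 0 by DESeq2 and 2 at 100 counts, and ranged from 1 to 2. KO against WT mESC ranged from 3 to 5, with the main count 6. For F/F against WT mESC the range was 4 to 5, for WT mESC against before 10 to 13, for WT EB against WT mESC 10 to 13, and for the OHT difference 1 throughout. With the cell line as a block, the pairing left 14 calls in KO mESC against F/F, 13 in WT mESC against before and 18 in KO EB against KO mESC, and ended the call of Olfr510 in WT mESC against before (adjusted p = 0.065). Genotype comparisons share no line, so no block could be fitted there.

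Log2 ratios of the family sum kept their sign in all alternatives run. KO to WT in EB was 1.32, and 1.47 at 25 counts, 1.26 at 100 counts, 1.39 over all rows, 1.26 with TMM library sizes and 1.50 without Olfr986. KO to WT in mESC moved to 0.69, WT mESC to before to -1.14, KO EB to KO mESC to 1.22 and WT EB to WT mESC to 0.41 without Olfr986. KO EB to KO mESC was also 1.20 at 25 counts, 0.90 at 100 and 1.33 over all rows, and WT EB to WT mESC 0.20 at 100 and 0.50 over all rows. The cause of these changes was not tested, beyond the genes each threshold adds or drops. Of named genes, 429 results kept their side of the threshold and 55 lost the call; Rif1 kept it in 33 of 33. Levels under 0.1 CPM rest on few counts and set no order among genes.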

Other observations

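Other chemoreceptor families, the vomeronasal, taste and trace amine receptors, held 383 rows, with a summed level of 20.8 ± 0.936 CPM in KO EB and 12.4 ± 0.892 CPM in WT EB (SD, n = 2 each). Of these, 20 were tested, and 6 were higher and 1 lower in KO EB than in WT EB by edgeR's quasi-likelihood test, beside 20.7% higher and 19.7% lower over all 17115 genes tested. Vmn2r12, a vomeronasal receptor, had 131 and 105 counts in KO EB against 2 in each WT EB library, and at most 3 in any mESC library (log2 fold change 5.95 ± 0.46, adjusted p = 8.1e-08). Vmn1r53 was at 1.82 ± 0.189 CPM in KO EB and 0.218 ± 0.0976 CPM in WT EB (2.94 ± 0.42, adjusted p = 2.9e-05). Vmn2r94 had 30 and 35 counts and Vmn1r227 had 19 and 30 counts in KO EB, and neither had a count in WT EB. Vmn2r12, Vmn2r94 and Vmn1r227 passed the filter on low counts through KO EB, so their calls are descriptions. Vmn1r51 (22 and 37 counts in KO EB, at most 6 in any other library) also passed it through that group. So did Taar7f (35 and 25 counts in KO EB, at most 8 in any other library). Tas1r1, a taste receptor gene, was the one that was lower (-0.88 ± 0.17, adjusted p = 0.00046).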
